A study of Mus musculus with 18 samples.

Results

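The 8 genes described here are glandular secretory genes of the mouse that were chosen because their ratios stood higher in mammary tumours labelled Wnt1 with iFGFR1, iFGFR2 or iR2 than in tumours labelled Wnt1 alone. They are Car6, Scgb2b27, Aqp5, Spdef, Dcpp1, Acox2, Tpd52l1 and Padi2, found by symbol in the annotation of the array. They are 8 of 16887 measured genes and are read by 9 of 22575 array features, with 2 features for Dcpp1 and 1 for each of the others. Because the choice rests on the ratios in these same arrays, every difference from Wnt1 below is a description and carries no test.

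Primary mammary tumours were profiled on 18 arrays with 2 channels, Cy5 for tumour RNA and Cy3 for whole-mouse RNA as the common reference. The groups are Wnt1 (n = 6), Wnt1_iFGFR1 (n = 4), Wnt1_iFGFR2 (n = 4) and Wnt1_iR2 (n = 4), called Wnt1, iFGFR1, iFGFR2 and iR2 here. Together the last 3 are called the receptor groups, although the label iR2 names no receptor. All sample titles carry FVB, a mouse strain name, and MMTV_Wnt1. The receptor groups thus share the Wnt1 label with their controls, and MMTV is the viral promoter that drives transgenes in mammary epithelium. The labels do not expand iFGFR1, iFGFR2 or iR2, and name no inducing agent, treatment time or age. Whether each array holds a tumour from a different animal is not stated, so p-values here measure only how these samples scatter, part of which may be technical.

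Secretory glands take up water and ions through channels and transporters, make proteins in the endoplasmic reticulum and release them at the apical face of the cell. Mammary epithelium is such a gland and shares part of this machinery with salivary and lacrimal glands, while milk proteins mark its alveolar state. The 8 genes fall into 3 roles. Car6, Scgb2b27 and Dcpp1 encode secreted proteins. Aqp5 encodes an apical water channel and Spdef an ETS transcription factor known for goblet and other mucous cell differentiation. Acox2, Tpd52l1 and Padi2 encode intracellular proteins, so the name secretory describes the product itself for only 3 of the 8.

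All values are log2 ratios of tumour to reference RNA, so 0 means the level of the whole-mouse pool and a difference of 1 means a factor of 2. A ratio is set against the same gene in the reference and does not rank genes by abundance. Spot brightness was not used here, so how far a low ratio stood above background is unknown. The number of arrays limits the precision. As a check of the labelled tissue, the mean of 12 luminal epithelial markers was above the reference on all 18 arrays, from 1.45 to 2.97. In bulk tumours, fewer cells of a type and less RNA per cell cannot be told apart.

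Among the secreted proteins, Car6 encodes the carbonic anhydrase of saliva and milk, which turns carbon dioxide and water into bicarbonate. On the Wnt1 arrays its lowest, median and highest log2 ratios were -3.97, -3.80 and -2.72. Replicates 1 to 4 stood at -0.16, 0.91, -1.0 and 0.24 for iFGFR1, 2.71, 0.80, 0.57 and -1.15 for iFGFR2, and 0.06, 2.48, 2.36 and -0.53 for iR2. All 12 receptor arrays were above every Wnt1 array, and the 3 receptor groups overlapped each other. The group means were -3.65 ± 0.47 in Wnt1 (SD, n = 6), then 0.00 ± 0.80 in iFGFR1, 0.73 ± 1.58 in iFGFR2 and 1.09 ± 1.55 in iR2 (SD, n = 4 each). These means stood above Wnt1 by 3.64 in iFGFR1, 4.38 in iFGFR2 and 4.74 in iR2 (SE 0.62 each), and 4.25 (SE 0.48) for their mean. Pooled over the 3 receptor groups the ratio was 19.1-fold that of Wnt1.

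Scgb2b27 encodes a secretoglobin, a subunit of the androgen-binding proteins of mouse saliva and tears. The log2 ratios of the Wnt1 arrays had a lowest, median and highest value of -1.24, -0.96 and -0.40. The 4 replicates read 0.95, 3.63, 1.0 and 2.01 for iFGFR1, 4.41, 4.71, 3.15 and 2.62 for iFGFR2, and 3.45, 4.85, 4.55 and 2.58 for iR2. The receptor arrays all lay above the Wnt1 arrays, but the lowest iFGFR1 arrays stood nearer to Wnt1 than any iFGFR2 or iR2 array did. Group means of the ratio were -0.85 ± 0.34 in Wnt1 (SD, n = 6), then 1.90 ± 1.25 in iFGFR1, 3.72 ± 1.0 in iFGFR2 and 3.86 ± 1.04 in iR2 (SD, n = 4 each). The differences from Wnt1 were 2.74 in iFGFR1, 4.57 in iFGFR2 and 4.70 in iR2 (SE 0.51 each), and 4.00 (SE 0.39) for their mean. The iFGFR2 and iR2 means were 0.14 apart, well inside their SDs, with iFGFR1 below both. This family has many near-identical copies, and which of them the feature also binds is unknown.

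Dcpp1 encodes demilune cell and parotid protein 1, a secreted protein of mouse salivary glands. Averaged over its features, the lowest, median and highest Wnt1 arrays read -6.08, -4.74 and -4.54. By replicate it was -4.75, -4.16, -4.08 and -4.29 for iFGFR1, -2.39, -1.54, -2.90 and -3.06 for iFGFR2, and -4.87, -2.25, -2.50 and -5.41 for iR2. In iR2 the arrays split, with replicates 2 and 3 far above Wnt1 and replicates 1 and 4 within its range. Replicate 4 was within it only through Wnt1 replicate 3 at -6.08, as the next lowest Wnt1 array stood at -5.03. Dcpp1 ratios averaged -4.96 ± 0.58 in Wnt1 (SD, n = 6), then -4.32 ± 0.30 in iFGFR1, -2.47 ± 0.68 in iFGFR2 and -3.76 ± 1.62 in iR2 (SD, n = 4 each). Against Wnt1 the differences were 0.64 in iFGFR1, 2.49 in iFGFR2 and 1.20 in iR2 (SE 0.50 each), and 1.44 (SE 0.39) for their mean. It was above every Wnt1 array on 3 of 4 iFGFR1, 4 of 4 iFGFR2 and 2 of 4 iR2 arrays. Its ratio was below the reference on all 18 arrays. The 2 features of Dcpp1 correlated at 0.954 over the arrays, with a largest difference of 0.998 on 1 array. Dcpp2 and Dcpp3, close relatives of Dcpp1, were not analysed here, and whether the features also bind them is unknown.

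Aqp5 encodes the apical water channel of salivary, lacrimal and airway glands, through which water follows secreted salt. Wnt1 arrays gave a lowest, median and highest log2 ratio of 0.59, 1.25 and 1.71. Replicates 1 to 4 gave 3.58, 5.56, 3.99 and 4.77 for iFGFR1, 4.6, 4.54, 3.70 and 3.04 for iFGFR2, and 3.52, 4.35, 4.04 and 2.88 for iR2. It was above the reference on every array, Wnt1 included, and each of the 12 receptor arrays was above the highest Wnt1 array. Means by group were 1.20 ± 0.39 in Wnt1 (SD, n = 6), then 4.47 ± 0.88 in iFGFR1, 3.97 ± 0.74 in iFGFR2 and 3.70 ± 0.64 in iR2 (SD, n = 4 each). Set against Wnt1, the means differed by 3.28 in iFGFR1, 2.77 in iFGFR2 and 2.50 in iR2 (SE 0.37 each), and 2.85 (SE 0.29) for their mean. From high to low the receptor means ran iFGFR1, iFGFR2, iR2, and neighbours in that order differed by less than 1 SD.

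Spdef encodes an ETS factor with a preference for GGAT over the more usual GGAA core. In Wnt1 the lowest, median and highest log2 ratios were -0.71, -0.51 and -0.04. The ratio by replicate was 1.66, 1.78, 1.04 and 2.35 for iFGFR1, 3.66, 1.85, 2.25 and 1.83 for iFGFR2, and 1.58, 2.72, 2.29 and 1.09 for iR2. The 12 receptor arrays lay above the reference and the 6 Wnt1 arrays below it. For Spdef the means were -0.43 ± 0.25 in Wnt1 (SD, n = 6), then 1.71 ± 0.54 in iFGFR1, 2.40 ± 0.86 in iFGFR2 and 1.92 ± 0.73 in iR2 (SD, n = 4 each). Their distance from the Wnt1 mean was 2.14 in iFGFR1, 2.83 in iFGFR2 and 2.35 in iR2 (SE 0.35 each), and 2.44 (SE 0.27) for their mean. The receptor groups overlapped, and their means differed by less than the SD within iFGFR2.

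Promoter sequence was read from RefSeq windows of GRCm38.p6, running from 250 bases before to 50 bases after each start, with 9 windows for the 8 genes because Acox2 has 2. The ETS letters CCGGAA, searched on both strands, were in 0 of the 9 windows and in 14.9% of all 32851 windows. CCGGAT, the form with the GGAT core, was in 0 of 9 and in 6.04% of all. The letters TATAA, searched on the gene's strand 45 to 15 bases before the start, were in the windows of Spdef and Dcpp1 and in 3.89% of all windows. A match is a description and not a binding site, and no match says only that these letters are not in the stretch searched, which for TATAA is part of the window. The windows of Spdef (chr17:27728902-27729201, minus strand) and Dcpp1 (chr17:23880626-23880925, plus strand) are shown because they hold that match, with TATAA in capitals.
Spdef: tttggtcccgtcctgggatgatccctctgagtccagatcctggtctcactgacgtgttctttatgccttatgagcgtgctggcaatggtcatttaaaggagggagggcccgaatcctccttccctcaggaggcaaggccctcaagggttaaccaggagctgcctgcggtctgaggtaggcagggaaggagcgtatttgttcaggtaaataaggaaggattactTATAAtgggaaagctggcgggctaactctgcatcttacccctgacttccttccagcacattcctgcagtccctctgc
Dcpp1: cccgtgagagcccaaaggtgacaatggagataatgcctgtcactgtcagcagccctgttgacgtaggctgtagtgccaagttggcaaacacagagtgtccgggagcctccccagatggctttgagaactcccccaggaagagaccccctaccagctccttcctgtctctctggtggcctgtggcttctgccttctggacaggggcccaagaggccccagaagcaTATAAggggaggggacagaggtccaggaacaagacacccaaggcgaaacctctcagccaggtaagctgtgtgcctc

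Acox2 encodes the branched-chain acyl-CoA oxidase of peroxisomes, which shortens the side chain of bile acid precursors and oxidises branched fatty acids. For the Wnt1 arrays the lowest, median and highest log2 ratios came to -3.41, -2.92 and -2.23. From replicate 1 to 4 the arrays read 1.41, 0.84, 0.82 and 0.62 for iFGFR1, 1.28, -0.46, -0.07 and -0.60 for iFGFR2, and -0.90, -0.53, -0.51 and -1.74 for iR2. Its 12 receptor arrays all lay above the 6 Wnt1 arrays, and the 4 iR2 arrays all lay below the 4 iFGFR1 arrays. The means of Acox2 were -2.81 ± 0.44 in Wnt1 (SD, n = 6), then 0.92 ± 0.34 in iFGFR1, 0.04 ± 0.85 in iFGFR2 and -0.92 ± 0.58 in iR2 (SD, n = 4 each). It stood higher than in Wnt1 by 3.74 in iFGFR1, 2.85 in iFGFR2 and 1.89 in iR2 (SE 0.33 each), and 2.83 (SE 0.26) for their mean. The pooled ratio was 7.1-fold that of Wnt1.

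Tpd52l1 encodes a member of the tumour protein D52 family, small coiled-coil proteins linked to vesicle traffic. Lowest, median and highest log2 ratios in Wnt1 were -1.79, -1.46 and -1.03. The arrays, replicates 1 to 4, read 1.79, 1.14, 1.38 and 1.86 for iFGFR1, 2.27, 0.24, 1.08 and 0.86 for iFGFR2, and 0.08, 0.74, 0.82 and -0.47 for iR2. Every receptor array was above every Wnt1 array, and the groups ran downward from iFGFR1 through iFGFR2 to iR2. Tpd52l1 had means of -1.45 ± 0.29 in Wnt1 (SD, n = 6), then 1.54 ± 0.34 in iFGFR1, 1.11 ± 0.85 in iFGFR2 and 0.29 ± 0.60 in iR2 (SD, n = 4 each). Differences from the Wnt1 mean came to 2.99 in iFGFR1, 2.56 in iFGFR2 and 1.74 in iR2 (SE 0.32 each), and 2.43 (SE 0.25) for their mean. As for Acox2, no iR2 array reached an iFGFR1 array.

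Padi2 encodes a peptidylarginine deiminase, an enzyme that turns arginine in proteins into citrulline. Its Wnt1 log2 ratios had a lowest, median and highest value of -2.62, -1.80 and -0.97. Its 4 replicates stood at -0.81, -0.17, -1.19 and -1.43 for iFGFR1, 1.84, 1.01, 0.72 and -0.44 for iFGFR2, and -0.02, 1.04, 0.78 and -0.87 for iR2. In iFGFR1 only replicates 1 and 2 were above every Wnt1 array, while all iFGFR2 and iR2 arrays were. Means of the Padi2 ratio were -1.89 ± 0.59 in Wnt1 (SD, n = 6), then -0.90 ± 0.55 in iFGFR1, 0.78 ± 0.94 in iFGFR2 and 0.23 ± 0.86 in iR2 (SD, n = 4 each). The receptor means exceeded that of Wnt1 by 0.99 in iFGFR1, 2.67 in iFGFR2 and 2.12 in iR2 (SE 0.42 each), and 1.93 (SE 0.32) for their mean. The iFGFR1 mean lay nearest to Wnt1.

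**Figure D1:**
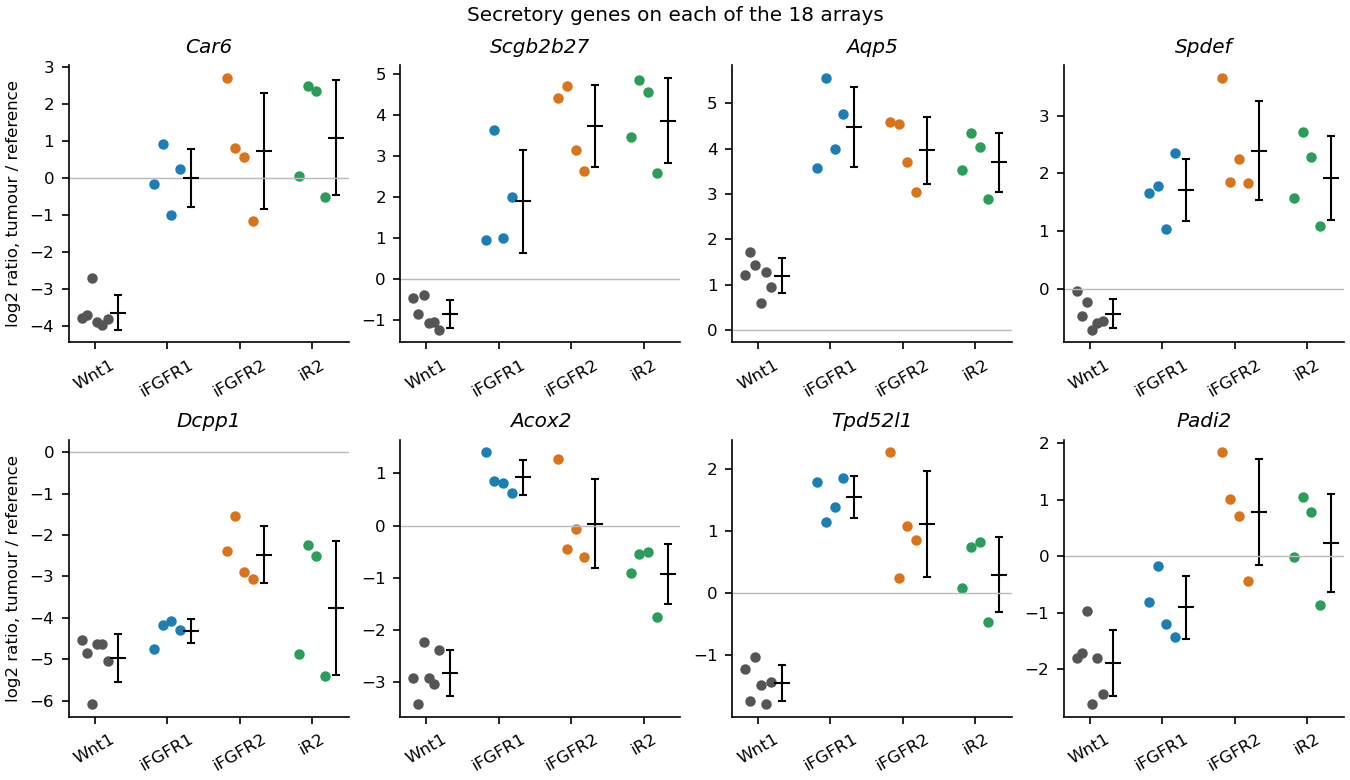
Log2 ratio of tumour to reference RNA for each of the 8 genes on each of the 18 arrays, by group, with its own vertical scale in every panel. Points are arrays, and the bars beside them give the mean and SD (n = 6 for Wnt1 and 4 for each receptor group); in 6 of the 8 panels every receptor array stands above every Wnt1 array.

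Over the 8 genes the median difference from Wnt1 was 2.63 for the mean of the 3 receptor groups, beside -0.02 over all genes. By group it was 2.87 in iFGFR1, 2.80 in iFGFR2 and 2.24 in iR2, beside 0.02, 0.0095 and -0.05 over all genes. These comparisons share the Wnt1 arrays. Every receptor array was above every Wnt1 array for 6 of the 8, as for 0.497% of all genes. Within iFGFR1 this was so for 6 of the 8 (4.88% of all genes), within iFGFR2 for 8 (2.5%) and within iR2 for 7 (6.24%). The genes were chosen on these contrasts, so nothing is read from the counts. The pooled differences ran from 1.44 for Dcpp1 to 4.25 for Car6.

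Marker lists of other cells moved between the same groups. The mean of the 12 luminal markers was 1.96 ± 0.46 in Wnt1 (mean ± SD over arrays), against 2.66 ± 0.28 in iFGFR1, 2.39 ± 0.18 in iFGFR2 and 2.54 ± 0.06 in iR2. Of these 12 genes, 5 rose and 0 fell when the receptor groups were averaged and set against Wnt1 (limma, adjusted p under 0.05). The mean of 10 basal and myoepithelial markers was -0.42 ± 0.32 in Wnt1 (mean ± SD over arrays), against -0.93 ± 0.12 in iFGFR1, -0.52 ± 0.17 in iFGFR2 and -0.53 ± 0.25 in iR2, and 1 of the 10 rose and 3 fell. Of 10 fibroblast markers the mean was -2.01 ± 0.46 in Wnt1 (mean ± SD over arrays), against -3.33 ± 0.39 in iFGFR1, -2.90 ± 0.29 in iFGFR2 and -2.51 ± 0.10 in iR2, and 7 of the 10 fell. Among adipocyte, immune and squamous markers 0 passed in that comparison. Over all genes, 6.9% rose and 5.62% fell in it. Their part in the differences of the 8 genes was not tested.

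Salivary glands are a site of Car6, Scgb2b27, Dcpp1 and Aqp5, so defining salivary markers were read as well, 9 of 12 of them measured. Their mean was -1.41 ± 0.17 in Wnt1 (mean ± SD over arrays), against -1.40 ± 0.22 in iFGFR1, -1.40 ± 0.16 in iFGFR2 and -1.83 ± 0.02 in iR2. Of the 9 genes, 0 rose and 1 fell with the receptor groups averaged, Bhlha15, a secretory cell transcription factor. In iR2 alone 0 rose and 3 fell, Bpifa2, Klk1 and Bhlha15, where 3.91% of all genes rose and 3.19% fell. Amy1, salivary amylase, stayed between -4.20 and -3.24 on the 18 arrays, and Bpifa2, a parotid protein, between -4.98 and -3.66. Both were thus far below the reference in every group, receptor groups included. Their group means were the lowest of the 9 markers. On the 18 arrays Dmbt1 ran from -4.21 to -1.48, Klk1 from -1.60 to -0.29 and Smr3a from -1.70 to -0.009. Nearer the reference, Lpo ran from -0.89 to 0.30, Prol1 from -0.83 to 0.89, Cst10 from -1.95 to 0.99 and Bhlha15 from -0.915 to 0.985.

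**Figure D2:**
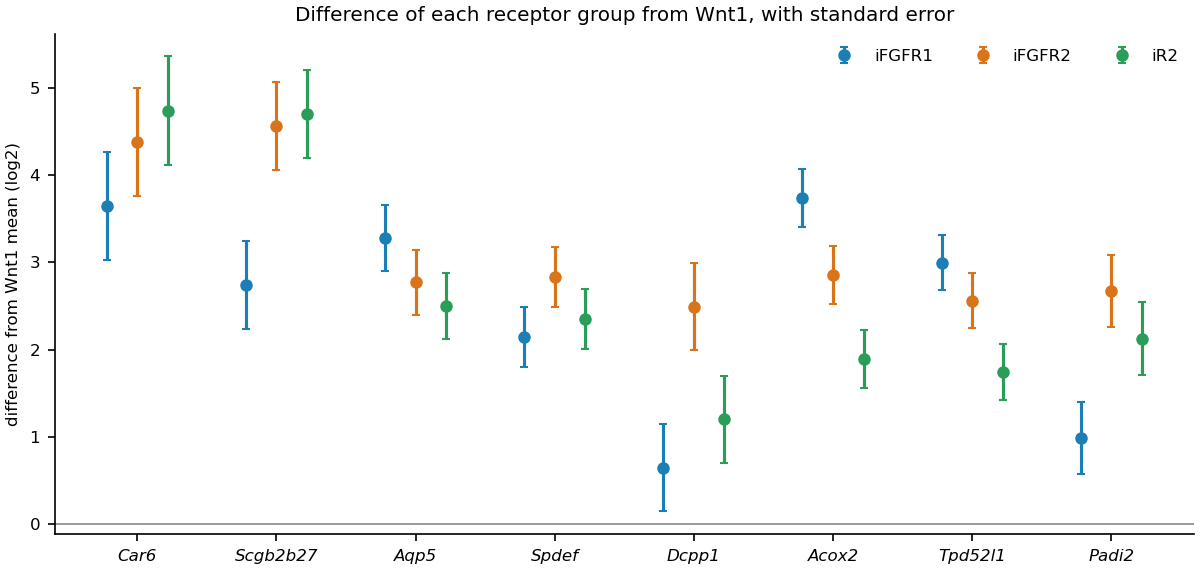
Difference of each receptor group's mean log2 ratio from the Wnt1 mean for the 8 genes, with the standard error from limma (n = 4 against 6). All 24 differences are above 0; iFGFR1 is lowest of the 3 groups for Car6, Scgb2b27, Spdef, Dcpp1 and Padi2, and highest for Aqp5, Acox2 and Tpd52l1.

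Receptor groups were compared with each other for Car6, Scgb2b27, Aqp5, Spdef, Acox2 and Tpd52l1, which were taken as chosen on the mean of the receptor groups. How each gene was chosen is not recorded; for a gene chosen on a single receptor group, this test would not be independent of the choice. The test was limma over all genes, with Benjamini-Hochberg adjustment. Between iR2 and iFGFR1, 3 of the 6 differed, where 11.7% of all genes did. Acox2 was lower in iR2 by a log2 difference of -1.84 (SE 0.36, limma adjusted p = 0.00279). Tpd52l1 was lower in iR2, with a difference of -1.25 (SE 0.35, limma adjusted p = 0.0234). Scgb2b27 went the other way and was higher in iR2 by 1.96 (SE 0.55, limma adjusted p = 0.0260), though its arrays overlapped between the groups. Car6 (difference 1.10), Spdef (0.21) and Aqp5 (-0.78) did not pass, with limma adjusted p of 0.324, 0.780 and 0.237. The Aqp5 difference changed sign, to 0.33, when each array was scaled to 1 median absolute deviation.

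The Scgb2b27 call was lost without replicate 1 or 3 of iFGFR1 or replicate 2 or 3 of iR2 (limma adjusted p from 0.0834 to 0.0985), and when only these groups entered the fit (0.0698). For Tpd52l1 it was lost without replicate 1 or 4 of iFGFR1 or of iR2 (0.0599 to 0.0936), and for Acox2 under no such omission. All 3 calls were lost once the title number of each sample entered the fit, with limma adjusted p of 0.160, 0.406 and 0.190 for Scgb2b27, Tpd52l1 and Acox2. Every iR2 title number is higher than every other title number, so this number and the iR2 group cannot be told apart.

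Between iFGFR2 and iFGFR1, 0 of the 6 passed limma's test and 2 had an unadjusted p under 0.05, where 2.13% of all genes passed. The closest were Scgb2b27, higher in iFGFR2 by 1.83 (SE 0.55, limma adjusted p = 0.0938), and Acox2, with a difference of -0.88 (limma adjusted p = 0.227). The Scgb2b27 difference passed without iFGFR1 replicate 2, the array at 3.63 (limma adjusted p = 0.0131), and that of Acox2 without iFGFR2 replicate 1 (0.0365). Between iR2 and iFGFR2, 0 of the 6 passed limma's test and 2 had an unadjusted p under 0.05, where 1.34% of all genes passed. The lowest limma adjusted p there was 0.194, for Acox2 with a difference of -0.96.

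Padi2 and Dcpp1 may have been chosen for single receptor groups, so their differences among receptor groups have no test. The iFGFR2 mean minus the iFGFR1 mean was 1.68 for Padi2 and 1.85 for Dcpp1. The iR2 mean minus the iFGFR1 mean was 1.14 and 0.56, and iR2 minus iFGFR2 was -0.55 and -1.29. All iFGFR2 arrays of Dcpp1 were above all iFGFR1 arrays, while its iR2 arrays spanned both groups.

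With the group means removed, the 8 genes varied together over the 18 arrays taken as 1 set. This uses the deviations of each array from its own group mean, so differences between group means do not enter. How each gene was chosen is not recorded, so whether the choice drew on the spread within groups is unknown. Pearson's r was above 0 for all 28 pairs, with a mean of 0.593, a median of 0.631 and a range from 0.188 to 0.926. In a sample of 2000 of all genes, 50% of the pairs were above 0. Over the 12 receptor arrays the mean r was 0.657, with 28 of 28 pairs above 0. Over the 6 Wnt1 arrays it was 0.227, with 19 of 28 above 0. There Dcpp1 was below 0 with every other gene, from -0.957 with Car6 to -0.295 with Spdef. Wnt1 replicate 3 was the lowest Wnt1 array for Dcpp1 and the highest for Car6. These r values are descriptions over arrays that share the reference and the normalization, and carry no p.

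The closest pair was Scgb2b27 and Aqp5, with r = 0.926, rho = 0.930 and r = 0.892 without the 2 arrays farthest from the median of Scgb2b27. Car6 and Padi2 followed with r = 0.881 (rho 0.856, 0.814 without the 2 arrays). Spdef, Tpd52l1 and Acox2 were also close, with r = 0.858 for Spdef and Tpd52l1 (rho 0.750, 0.757 without the 2 arrays) and 0.842 for Acox2 and Tpd52l1 (rho 0.719, 0.694). Car6 was close to genes of either kind, at 0.807 with Scgb2b27 and 0.851 with Spdef. With Acox2 it was at 0.728 and with Tpd52l1 at 0.680. Car6 left aside, pairs of Scgb2b27, Aqp5 or Padi2 with Spdef, Tpd52l1 or Acox2 ranged widely. They ran from 0.210 for Aqp5 and Tpd52l1 and 0.265 for Aqp5 and Acox2 to 0.602 for Aqp5 and Spdef and 0.675 for Spdef and Padi2. Dcpp1 was lowest of all with Acox2, at 0.188, which turned to -0.129 without the 2 farthest arrays, and with Tpd52l1 r went from 0.227 to -0.090.

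**Figure D3:**
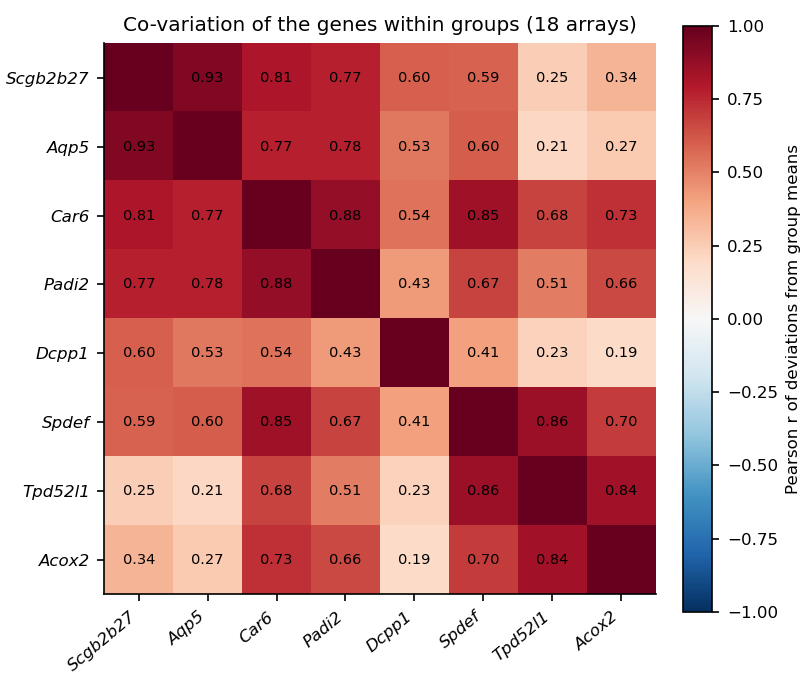
Pearson's r between the 8 genes over the 18 arrays after each group's mean was removed, with r printed in each cell and a colour scale from -1 to 1. All 28 pairs are above 0. The gene order was set by hand, and the upper left block holds Scgb2b27, Aqp5, Car6 and Padi2. The lower right block holds Spdef, Tpd52l1 and Acox2. Car6 and Spdef, from different blocks, have r = 0.851.

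The pair with the highest r has promoters of unlike composition, and both windows are printed with every CG in capitals. The window of Aqp5 (chr15:99590778-99591077, plus strand) holds 46 CG and is 79.7% G and C. That of Scgb2b27 (chr7:34013893-34014192, minus strand) holds 4 CG at 51.3%, close to the median of 52.7% over all windows.
Scgb2b27: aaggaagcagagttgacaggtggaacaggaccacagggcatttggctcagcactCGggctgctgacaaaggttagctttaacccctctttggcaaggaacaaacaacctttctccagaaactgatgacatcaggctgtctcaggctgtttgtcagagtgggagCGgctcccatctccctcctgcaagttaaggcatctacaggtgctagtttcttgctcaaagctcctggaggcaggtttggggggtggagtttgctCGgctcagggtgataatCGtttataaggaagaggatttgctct
Aqp5: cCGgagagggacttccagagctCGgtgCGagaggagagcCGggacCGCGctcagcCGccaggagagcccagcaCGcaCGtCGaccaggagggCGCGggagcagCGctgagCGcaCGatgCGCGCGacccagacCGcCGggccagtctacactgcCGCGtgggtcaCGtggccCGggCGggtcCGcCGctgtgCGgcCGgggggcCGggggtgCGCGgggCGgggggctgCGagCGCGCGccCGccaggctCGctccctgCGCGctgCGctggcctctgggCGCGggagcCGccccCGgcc

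The arrays at the ends of this shared variation can be named. Each gene's deviations were scaled to unit SD and averaged over the 8 genes. The highest arrays were iFGFR2 replicate 1 at 1.58, iR2 replicate 2 at 1.23 and iR2 replicate 3 at 0.95, with all 8 genes above their group means on each. The lowest were iR2 replicate 4 at -1.61 and iFGFR2 replicate 4 at -1.26, with 0 of the 8 above. On iFGFR2 replicate 3 all 8 were below as well, at a mean of -0.31. The Wnt1 arrays ran only from -0.37 to 0.53.

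Skin and squamous markers varied against the 8 genes, with r = -0.719 and rho = -0.571 between this average and the mean of the 10 of 12 measured markers. Without the 2 arrays farthest from the median of the markers r was -0.584. It was -0.792 over the 12 receptor arrays and 0.760 over the 6 Wnt1 arrays. The iR2 group spans the range, with marker means of -2.91, -3.39, -3.34 and -1.78 on replicates 1 to 4, and replicate 4 was also the lowest of all arrays for the 8 genes. Sbsn (r = -0.822), Krt10 (-0.795) and Sprr1a (-0.734), genes of cornifying epithelium, were the closest single markers, while Sprr1b was at 0.296. By group the marker mean was -2.70 ± 0.14 in Wnt1 (mean ± SD over arrays), against -1.78 ± 0.38 in iFGFR1, -2.77 ± 0.15 in iFGFR2 and -2.86 ± 0.75 in iR2. Adipocyte markers gave r = 0.450, immune 0.293, salivary 0.226, luminal 0.126, fibroblast 0.084 and basal -0.045, and the spread of the whole array 0.206. Over the 6 Wnt1 arrays these values were 0.960 for adipocyte, 0.407 for immune, -0.557 for salivary, 0.663 for luminal, 0.752 for fibroblast and 0.740 for basal markers. Over the 12 receptor arrays they were 0.585, 0.307, 0.402, -0.0046, -0.073 and -0.288 in the same order, so several lists differed in sign between the array sets. Wnt1 replicate 3 was the highest Wnt1 array for the average of the 8 genes, at 0.53. The same array was highest among Wnt1 arrays for the luminal (2.73), basal (0.18), fibroblast (-1.11), adipocyte (-2.58) and squamous (-2.42) marker means. For the salivary mean it was the lowest (-1.67). The r values over the Wnt1 arrays were not computed without it. The part of the marker lists in the shared variation was not tested.

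**Figure D4:**
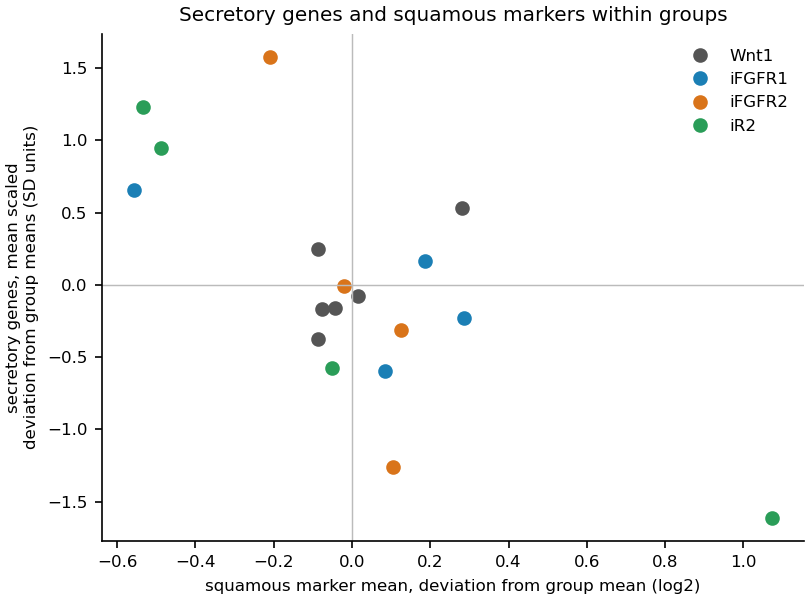
Mean scaled deviation of the 8 genes (vertical, SD units) against the deviation of the squamous marker mean (horizontal, log2 units) on the 18 arrays, each taken from its group mean. Points are arrays coloured by group; iR2 replicate 4 lies at the lower right, and iR2 replicates 2 and 3 at the upper left.

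Among all other named genes, those whose deviations from the group means were most like the average of the 8 over the 18 arrays were Rap1gap (r = 0.909), Kcnn2 (0.900), Secisbp2l (0.900), Il15ra (0.893), Egf (0.881) and Gramd1b (0.864). Rap1gap encodes a GTPase-activating protein of Rap, Kcnn2 a calcium-activated potassium channel and Egf epidermal growth factor. The Egf ratio was -1.67 ± 0.30 in Wnt1 against -1.52 ± 0.53 in iFGFR1, -0.14 ± 1.5 in iFGFR2 and -0.39 ± 0.98 in iR2 (mean ± SD over arrays). Secisbp2l exceeded the highest Wnt1 array on 11 of 12 receptor arrays and Il15ra on 6. Most like Spdef alone were Slfnl1 (0.923), Gramd1b (0.903), Secisbp2l (0.902) and Casp12 (0.901). These are the highest values among the 16887 genes once the 8 genes and unnamed clones were left out, and were picked for being so.

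Relatives of the 8 genes by family were read next, 46 of them measured. With the receptor groups averaged and compared with Wnt1, 2 of the 46 rose (6.9% of all genes did) and 2 fell (5.62% of all). Their median difference was 0.16. Padi4, another peptidylarginine deiminase, rose by 0.97 (SE 0.22, limma adjusted p = 0.00741), with means of -0.29 in Wnt1 against 1.93 in iFGFR1, 0.15 in iFGFR2 and -0.03 in iR2. It was thus high in the group where Padi2 stood nearest to Wnt1. Car9, a membrane-bound carbonic anhydrase induced by hypoxia, rose by 0.56 (SE 0.18, limma adjusted p = 0.0470). Its means were 0.62 in Wnt1 against 2.08 in iFGFR1, 0.86 in iFGFR2 and 0.60 in iR2, so iFGFR1 carried the difference. Car11, a carbonic anhydrase-related protein without catalytic activity, fell by 0.50 (SE 0.14, limma adjusted p = 0.0211), and the ETS factor gene Elf2 fell by 0.92 (SE 0.30, limma adjusted p = 0.0460). The calls of Car9 and Elf2 were lost under 17 of 26 alternatives each, and that of Car11 without Wnt1 replicate 6 (limma adjusted p = 0.0606). With the title number as a covariate the calls of Padi4 (0.0549) and Car11 (0.219) were lost too.

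Other relatives did not pass. Elf5, the ETS factor of alveolar differentiation, had a difference of 1.16 (limma adjusted p = 0.0512), Aqp3, an aquaglyceroporin, of -1.48 (0.0542), and Tpd52 of 0.34 (0.174). Acox3 differed by 0.23 (0.502) and Zg16, a zymogen granule protein listed beside Dcpp1, by -0.32 (0.259). Of the secretoglobins other than Scgb2b27, 6 of 26 were measured and 0 passed in the pooled comparison, with 3 at an unadjusted p under 0.05. By single groups, 5 of the 46 relatives rose and 1 fell in iFGFR1 (8.38% and 7.06% of all genes). In iFGFR2, 1 rose and 0 fell (1.97% and 1.46%), and in iR2, 1 rose and 6 fell (3.91% and 3.19%). The 6 that fell in iR2 included 3 of the 6 measured secretoglobins, Scgb1a1 (-0.65, limma adjusted p = 0.043), Scgb3a1 (-0.90, 0.0138) and Scgb3a2 (-1.20, 0.0244). The rest were Car4 (-0.67, limma adjusted p = 0.0409), Aqp8 (-1.64, 0.0251) and Zg16 (-0.88, 0.0260). Under quantile normalization the calls of Scgb3a1 (limma adjusted p = 0.133) and Scgb3a2 (0.177) were lost.

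The one relative that rose in iR2 was Scgb1b27, the gene next to Scgb2b27, which encodes the partner subunit type of the androgen-binding protein dimer. Its ratio on the 4 iR2 arrays was 0.14, 3.37, 2.43 and 0.17. The Wnt1 arrays had a lowest value of -0.97 and a highest of 0.37. Replicates 2 and 3 thus carried the difference, the same arrays on which Dcpp1 was high. The difference from Wnt1 in iR2 was 1.71 (SE 0.48, limma adjusted p = 0.0348), and the call was lost without iR2 replicate 2 (0.158), iR2 replicate 3 (0.148), Wnt1 replicate 5 (0.0686) or Wnt1 replicate 6 (0.0779). Array weights (limma adjusted p = 0.0512) and fitting only the groups compared (0.0604) also ended the call. So did the title number as a covariate (0.394). In iFGFR2, where Scgb2b27 reached 4.71, Scgb1b27 lay between 0.06 and 0.81.

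**Figure D5:**
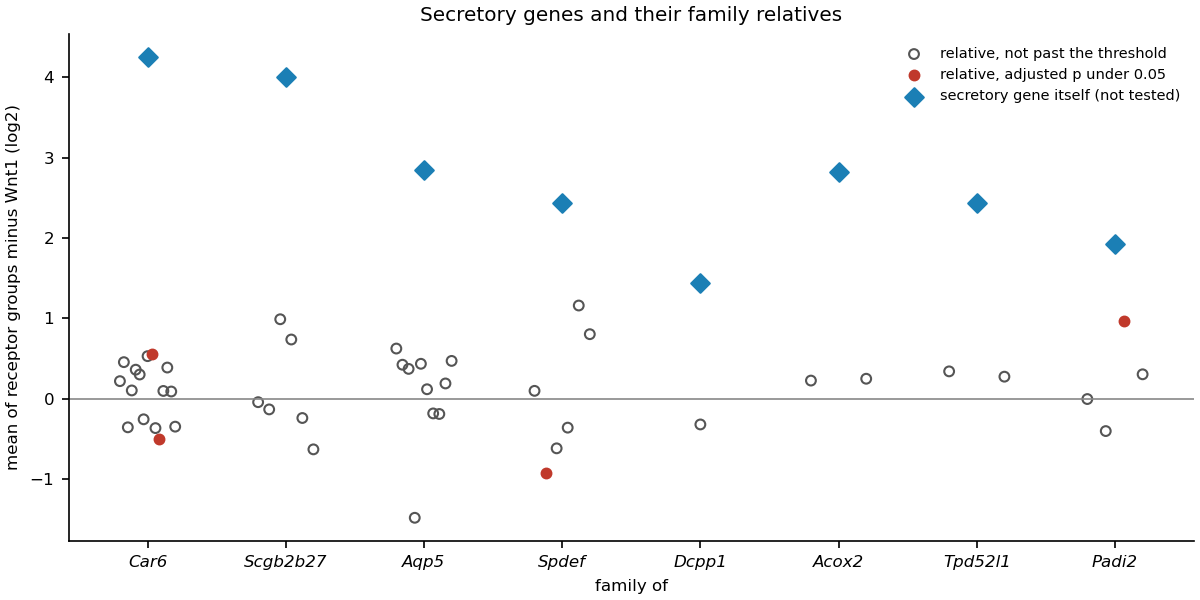
Mean of the 3 receptor groups minus Wnt1 (log2) for the 8 genes, drawn as diamonds and not tested, and for the 46 measured relatives in the family of each, drawn as circles. Filled circles are the 4 relatives past limma's threshold; each diamond stands above all relatives of its family.

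The wider pathways were read from 7 lists with 186 measured genes in all, of which 24 rose and 9 fell in the pooled comparison, where 6.9% of all genes rose and 5.62% fell. Group by group, 25 rose and 13 fell in iFGFR1 (8.38% and 7.06% of all genes) and 9 and 3 in iFGFR2 (1.97% and 1.46%). In iR2, 12 rose and 12 fell (3.91% and 3.19%). The counts of each list below are read beside the pooled shares unless a group is named. The salivary and lacrimal list (21 genes, median -0.07) had 1 riser, the calcium-activated potassium channel Kcnn4, by 2.02 (SE 0.28, limma adjusted p = 0.000263), and 1 that fell, Bhlha15, by 0.79 (adjusted p = 0.0185). The Bhlha15 call was lost without Wnt1 replicate 2 (limma adjusted p = 0.0575). In iR2 alone this list had a median of -0.33, with 1 riser, Kcnn4, and 5 that fell, Bpifa2, Bpifa1, Pip, Klk1 and Bhlha15. Among 25 fluid and ion transport genes (median 0.02), 3 rose and 1 fell. Slc12a2, the sodium-potassium-chloride cotransporter that loads chloride into secretory cells, rose by 1.44 (SE 0.28, limma adjusted p = 0.00310) and exceeded all 6 Wnt1 arrays in each of the 12 receptor tumours' arrays. Itpr2, a calcium release channel, fell by 0.59 (limma adjusted p = 0.00557), while Itpr3, another such channel, rose by 0.96 (0.00711).

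Of 29 mucous and goblet genes (median -0.09), 3 rose and 2 fell. Foxa3, a forkhead factor of goblet cells, rose by 1.41 (SE 0.23, limma adjusted p = 0.000942), with means of -1.85 in Wnt1 against -1.26 in iFGFR1, -0.06 in iFGFR2 and 0.01 in iR2. Pdia5, which encodes a disulfide isomerase, rose by 0.71 (adjusted p = 0.00924, limma), while the membrane mucin gene Muc4 fell by 1.25 (0.00240). On the same list Agr2 (-0.24), Tff1 (-0.22), Tff2 (-0.28) and Tff3 (-0.17) did not pass. In iR2, where the Foxa3 mean was highest, 2 of the list rose and 3 fell (3.91% and 3.19% of all genes). Foxa3 and Xbp1 rose there, and Foxa2 (-1.24), Muc4 (-1.23) and Tff3 (-0.89) fell. Of 21 milk and apical genes (median -0.22), 2 rose and 3 fell, among them the casein gene Csn3, which rose by 1.70 (limma adjusted p = 0.00535), the lipocalin gene Lcn2, which rose by 1.33 (0.010), and the mucin-like gene Glycam1, which fell by 1.37 (0.00212). The Csn3 call was lost when each array was scaled to 1 median absolute deviation (limma adjusted p = 0.0729). By group Csn3 passed only in iFGFR1, by 2.53 (limma adjusted p = 0.00126), and not in iFGFR2 (1.29, 0.116) or iR2 (1.27, 0.0993). The casein genes Csn1s1 (-0.94), Csn1s2a (-1.43), Csn1s2b (-0.06) and Csn2 (-1.15) had pooled differences below 0 that did not pass.

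The secretory machinery list had 7 that rose and 0 that fell among 50 genes, with a median of 0.07. Copa, a subunit of the COPI coat, rose by 1.01 (limma adjusted p = 0.000629), Rab27b, a GTPase of secretory granules, by 1.15 (0.000843) and Sec63, a part of the translocation machinery of the endoplasmic reticulum, by 1.13 (0.00120). Around Acox2, the peroxisomal oxidation list had 6 that rose and 2 that fell among 29 genes, with a median of 0.14. Pex7, the receptor that imports a class of peroxisomal enzymes, rose by 1.23 (limma adjusted p = 0.00124) and its 12 receptor arrays all exceeded the Wnt1 arrays. Ech1, an enoyl-CoA isomerase, rose by 0.80 (limma adjusted p = 0.0189), a call lost without Wnt1 replicate 6 (0.0635). Phyh, which starts the oxidation of phytanic acid, fell by 0.68 (limma adjusted p = 0.0122). Of 14 luminal hormone response genes (median 0.14), 4 rose and 0 fell, led by Prom1, a membrane glycoprotein of luminal cells, with 2.15 (SE 0.19, limma adjusted p = 5.03e-06, 12 of 12 arrays above Wnt1), Krt18 with 0.95 (0.0138) and Xbp1, a factor of the secretory stress response, with 0.97 (0.0261). The Xbp1 call was lost without Wnt1 replicate 1, 2, 5 or 6 (limma adjusted p from 0.0589 to 0.0801), and under scaling to 1 median absolute deviation those of Krt18 (0.0963) and Xbp1 (0.0717) were lost. The title number as a covariate, which cannot be told apart from iR2, ended the calls of 11 genes named from the pathway lists, with Itpr3 left aside. For Foxa3 the difference was 0.84 (limma adjusted p = 0.186). For Bhlha15, Lcn2, Pdia5, Slc12a2 and Itpr2 the limma adjusted p was 0.152, 0.0802, 0.0514, 0.0872 and 0.116. For Rab27b, Sec63, Phyh, Krt18 and Xbp1 it was 0.119, 0.0514, 0.237, 0.211 and 0.118.

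Chromosomal neighbours were counted last, from the 2 protein-coding places on either side of each gene in the RefSeq table, 22 of 32 measured. This list was chosen after the values had been seen. Of the 22, 2 rose and 0 fell in the pooled comparison, beside 6.9% and 5.62% of all genes. Both lie beside Acox2: Oit1 rose by 0.90 (limma adjusted p = 0.0126) and Pdhb, a pyruvate dehydrogenase subunit, by 0.62 (0.0416). The Pdhb call was lost under 13 of 26 alternatives, and that of Oit1 with the title number as a covariate (limma adjusted p = 0.143). At the other 7 genes 0 measured neighbours passed limma's test in the pooled comparison. By single groups, 5 of the 22 rose in iFGFR1 (8.38% of all genes), 1 in iFGFR2 (1.97%) and 2 in iR2 (3.91%), Scgb1b27 among the last, and 0 fell in any of them.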

How the data were processed

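The authors deposited 1 table of log ratios, read here as log2, for 22575 features on 18 arrays of tumour (Cy5) and whole-mouse reference RNA (Cy3), per the labels. Per the labels' protocols, tumour RNA was extracted by column kit and reference RNA by TRIZOL. Log base, direction, scanner, background correction and normalization were not given in the sources used here, so direction was taken from the dyes. The table has 0 empty cells, and its column medians lie between -0.02 and 0.01.

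Symbols came from the platform annotation: 18658 features had 1 symbol, 30 several and 3887 none. Averaging the features of each symbol left 16887 genes. Groups came from the labels of the tumour channel, and replicate numbers follow accession order and pair nothing. Linear models of limma 3.58.1 under R 4.3.3 (lmFit, then eBayes) were fitted to all genes and arrays at once. P-values were adjusted by Benjamini and Hochberg per comparison, with a threshold of 0.05. The fit was tested on simulated data.

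The 8 genes, the 22 gene lists and the tests were chosen with earlier results of these data known. Named besides the 8 genes are, per family and pathway list, up to 3 genes past the threshold in the pooled comparison by smallest p, or the 1 with the smallest p where none passed. The 6 genes most like the mean of the 8 and the 4 most like Spdef are named as well. Scgb1b27 by array, Itpr3, single marker genes and the neighbours were chosen after their values were seen. Alternatives covered centring, quantile normalization, scaling, array weights, the prior, the choice of probe, the threshold, the groups in the fit, the title number and each array left out. RefSeq promoters are of GRCm38.p6, and the table's own build is not named.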

Additional observations from a re-analysis of the deposited data

Results flagged for a closer look

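Within each group the highest and lowest array of each of the 8 genes were set against the others, 32 groups in all, and chance alone sets about 1 in 20 such groups apart. For Car6, Wnt1 replicate 3 stood apart at a log2 ratio of -2.72, with a gap to the next array of 0.784 of the group's range. For Dcpp1 the same array stood apart on the low side, at -6.08 with a gap of 0.682 of the range. Wnt1 replicate 3 was thus the highest Wnt1 array for Car6 and the lowest for Dcpp1. It raises the Wnt1 mean of Car6 and lowers that of Dcpp1, so it narrows the differences of Car6 from Wnt1 and widens those of Dcpp1. The differences of these genes are given here only with this array in place.

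Effects against Wnt1 differed between iR2 and iFGFR1 for 3 genes by limma's test of the difference itself. Scgb2b27 was higher in iR2 by 1.96, and Acox2 and Tpd52l1 had differences of -1.84 and -1.25. The adjusted p-values and the arrays these rest on stand with the comparison of the receptor groups.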

How the results depend on the processing

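Over the summary values, 115 alternatives stayed close to the reported value and 42 moved it. With each array left out in turn, the median difference of the 8 genes from Wnt1 ran from 2.50 to 2.73 pooled, 2.54 to 3.04 in iFGFR1, 2.45 to 3.07 in iFGFR2 and 1.97 to 2.56 in iR2, and the mean within-group r from 0.486 to 0.663 (0.227 over the Wnt1 arrays alone). The count of tested genes that differed ran from 0 to 1 between iFGFR2 and iFGFR1, from 1 to 3 between iR2 and iFGFR1, and was 0 between iR2 and iFGFR2. Relatives that rose or fell in the pooled comparison ran from 1 to 4 and 0 to 4, in iFGFR1 from 3 to 7 and 0 to 3, in iFGFR2 from 0 to 3 and 0 to 2, and in iR2 from 0 to 2 and 0 to 7. Pathway genes ran from 16 to 33 that rose and 5 to 15 that fell. At a threshold of 0.1 the count between iFGFR2 and iFGFR1 was 1, and relatives that rose and fell were 5 and 4 pooled, 8 risen in iFGFR1, and 3 and 2 in iFGFR2. At 0.01 the count between iR2 and iFGFR1 was 1, and relatives were 1 and 0 pooled, 2 and 0 in iFGFR1, 0 risen in iFGFR2, and 0 and 0 in iR2. With the title number as a covariate the count between iR2 and iFGFR1 was 0, no relative passed in the comparisons it moved (0 each), and 10 pathway genes rose and 2 fell. Scaling each array to 1 median absolute deviation gave 1 between iR2 and iFGFR2 (Acox2, -1.09, limma adjusted p = 0.0437), relatives of 1 and 1 pooled, 0 fallen in iFGFR1, and 3 and 10 in iR2. Quantile normalization gave 4 relatives risen pooled, 0 fallen in iFGFR1 and 1 fallen in iR2. Array weights gave 0 fallen in iFGFR1, 6 and 12 in iR2, and 15 pathway genes that fell. A robust and trended prior gave 1 relative fallen pooled and 0 risen in iFGFR2, fitting only the groups compared gave 0 risen in iFGFR2 and in iR2, and the most variable probe gave 0 fallen in iFGFR1. The causes were not tested.

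Differences between receptor groups that had not passed changed sign in places. Under scaling, Aqp5 turned to 0.33 for iR2 minus iFGFR1 and to 0.79 for iR2 minus iFGFR2, and Spdef to 0.15 for the latter. With each array left out, Spdef for iR2 minus iFGFR1 ran from -0.058 (without iR2 replicate 2) to 0.485, and was also below 0 without iFGFR1 replicate 3. For iR2 minus iFGFR2, Car6 ran from -0.27 (without iFGFR2 replicate 4) to 1.02, below 0 also without iR2 replicate 2 or 3. Scgb2b27 there ran from -0.23 (without iFGFR2 replicate 4) to 0.56, below 0 also without iFGFR2 replicate 3 or iR2 replicate 2 or 3, and turned to -0.10 under quantile normalization. The relative Tpd52 turned to -0.0588 pooled with the title number as a covariate. No paired analysis was possible because replicate numbers follow accession order and pair nothing. Among arrays whose title code holds the digit 3, a setting added after the values were seen, the 8 receptor arrays stood above the 1 Wnt1 array for 7 of the 8 genes, and 7 of 8 did for Dcpp1.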
